A study of Arabidopsis thaliana with 48 samples.

Results

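Of 32824 Arabidopsis loci, 90 were raised by a short exposure to excess light in wild-type seedlings. When the same light was combined with heat, they stood near or below their control level. Members had a difference in mean log2(FPKM + 1) of at least 1 between excess light and control, a difference of at most 0.3 between excess light with heat and control, and a mean of at least 5 FPKM in excess light. FPKM is a fragment count scaled by transcript length and library size. The members were selected on the FPKM of 9 wild-type libraries, which are described without a test, and the tests below compare the means of other groups. In the fits that hold wild-type libraries, these 9 still entered the filter on low values and the shared estimate of spread.

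Pools of about 125 to 150 whole seedlings, 6 days old, of wild type (WT, accession Col-0) and of the single T-DNA insertion line rap2.3_1 were grown on ½ MS plates. Excess light with heat (EL+HS) was 700 µmol m-2 s-1 at 33 °C, excess light (EL) was 700 µmol m-2 s-1 at 21 °C, and heat stress (HS) was 50 µmol m-2 s-1 at 33 °C, each for 1.5 h. Control (CT) seedlings stayed at 21 °C and 50 µmol m-2 s-1. The same 4 conditions were applied to seedlings raised for all 6 days with 50 mM NaCl (named S+EL+HS, S+EL and S+HS, with S as their control), which gave 16 groups of 3 biological repeats. Because whole seedlings were pooled, fewer cells of a type and less RNA per cell cannot be told apart.

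The 48 libraries summed to between 765860 and 822875 FPKM, and replicates of a group correlated at r between 0.9438 and 0.9807 on the log scale. Transcripts of RAP2.3, the ERF-family transcription factor gene named for the insertion line, spanned 205.5 to 602.4 FPKM across the 24 libraries labelled RAP2.3, against 34.9 to 86.1 FPKM in the 24 WT libraries. The higher level goes against a label that names an insertion in this gene, so those groups are called the RAP2.3-labelled libraries throughout. All 5 shoot mesophyll markers were present in every library, the lowest being GLDP1 at 297.5 FPKM, and the 3 pollen markers summed to at most 1.973 FPKM, with VGD1 at 0 throughout. The 4 seed storage markers summed to 0.304 to 81.07 FPKM in WT CT, a group that the rule used, 1.484 to 23.81 FPKM in WT S+EL+HS and 0.2807 to 18.21 FPKM in WT S+HS, and to at most 15.13 FPKM in any other group, and their part in the results was not tested.

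Plants under excess light build screening pigments from phenylalanine through the phenylpropanoid and flavonoid pathways, attach sugars to these products with UDP-glycosyltransferases, and protect chlorophyll-binding complexes with early light-induced proteins. Heat triggers a separate programme of chaperone genes, and anthocyanin accumulation in Arabidopsis is known to weaken at high temperature. The 90 members held genes of all these light-linked functions, together with genes of sulfur metabolism, jasmonate responses, transport and the cell wall. One MYB activator of anthocyanin synthesis, PAP1, was among them.

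The RefSeq annotation listed 65 members as protein coding, 13 as lncRNA, 5 as snRNA, 3 as snoRNA, 2 as antisense RNA and 1 as another ncRNA, and did not list ATCG00630. Transcripts under 300 nt made up 29 of the 89 members with a length, or 32.6%, against 2.14% of the 608 other light-induced genes with a length (genes past the same light and FPKM limits that stayed above 0.3 in EL+HS). Among these 29 and ATCG00630, 28 had at least 1 of the 3 WT EL libraries at 0 and 20 had 2 of them at 0, where a value under 0.01 FPKM counted as 0. The snoRNA AT4G39363, for example, had 1567, 0 and 0 FPKM in WT EL libraries and 0 in all 3 WT CT libraries, and the snoRNA AT1G07903 had 1041 FPKM in WT EL replicate 1 and 0 in all other libraries. The membership of those 28 rested on 1 or 2 libraries. The other 60 members, 58 of them protein coding, had all 3 WT EL libraries above all 3 WT CT libraries in 49 cases. The rule asked for a difference between these same libraries, so this count describes the selection and is no support for it. The length limit was set after these values were seen.

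Closely spaced values lay on both sides of each limit of the rule. For EL minus CT, ADT5 lay just inside at 1.01 and MYC2 at 1.02, and AT1G77330 just outside at 1.00 and PP2-A8 at 0.9977. For EL+HS minus CT, NAS2 lay inside at 0.2955 and AT5G14130 at 0.292, against AT1G11185 outside at 0.3163 and MYB13 at 0.341. For the level in EL, AT3G61900 lay inside at 5.12 FPKM and DAN1 at 5.55 FPKM, against AT1G05253 outside at 4.81 FPKM.

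Light raised many members in libraries that had no part in choosing them. EL replicate 1 was the highest EL library for 46 of the 60 members of 300 nt or more under both labels. Whether EL libraries of the same number were linked between the labels was not tested, so the tests without salt may not be fully independent of the selection. In the RAP2.3-labelled libraries, 33 of the 90 members were called higher in EL than in CT and 0 lower (limma, adjusted p under 0.05), with 70 members expressed enough to be tested. Of all genes tested, 7.61% were called higher and 6.67% lower. Among the other light-induced genes, 437 of 610 tested were called higher, a larger share than the 33 of 70 tested members. In WT seedlings on salt, 28 of 90 were called higher in S+EL than in S and 0 lower, with 71 tested and backgrounds of 6.76% and 5.18%. There 347 of 611 other light-induced genes tested were called higher, again a larger share than of the members. The 22 members called in both comparisons, which share no library, were 66.7% of the 33 and 78.6% of the 28. They included PAL1, CHIL, CCoAOMT1, UGT84A2 and PAP1 of the phenylpropanoid pathway, 4 other UDP-glycosyltransferases, ELIP2, LEA3, BOR5 and DTX35. On salt, 22 of 90 in the RAP2.3-labelled libraries were called higher in S+EL than in S, with 0 called lower and backgrounds of 4.95% and 6.51%; the count was 14 without S+EL replicate 1, S+EL replicate 2 or S replicate 3.

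Adding heat to light lowered many members. Of the 90 members, 35 in the RAP2.3-labelled libraries were called lower in EL+HS than in EL and 0 higher, against backgrounds of 15.1% lower and 3.48% higher. WT on salt also had 35 of 90 called lower in S+EL+HS than in S+EL and 0 higher, against 5.63% and 4.65%, and 27 members were shared by the 2 comparisons, 77.1% of each. The RAP2.3-labelled libraries on salt gave 39 lower and 0 higher, against 10.5% and 4.85%, and the 39 became 18 without S+EL replicate 1 and 20 without S+EL+HS replicate 1. Set against CT, the members in EL+HS were seldom called: 4 of 90 were higher and 4 lower in the RAP2.3-labelled libraries, with backgrounds of 11.1% and 30.8%. All genes tested had a median change of -0.22 in that comparison, and after rescaling the libraries by size factors the median was -0.03 and the counts were 8 higher and 1 lower. The 4 higher became 2 without CT replicate 1 and 1 without EL+HS replicate 2, and the 4 lower became 1 without EL+HS replicate 1, EL+HS replicate 3 or CT replicate 3. On salt in WT, 2 were higher and 3 lower in S+EL+HS than in S, with backgrounds of 10.6% and 13.3%. Without S replicate 1 or S+EL+HS replicate 1 the 3 became 0, without S+EL+HS replicate 2 they became 1, and without S replicate 3 they became 7; the 2 became 1 without S replicate 1, S replicate 3 or S+EL+HS replicate 1.

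**Figure D1:**
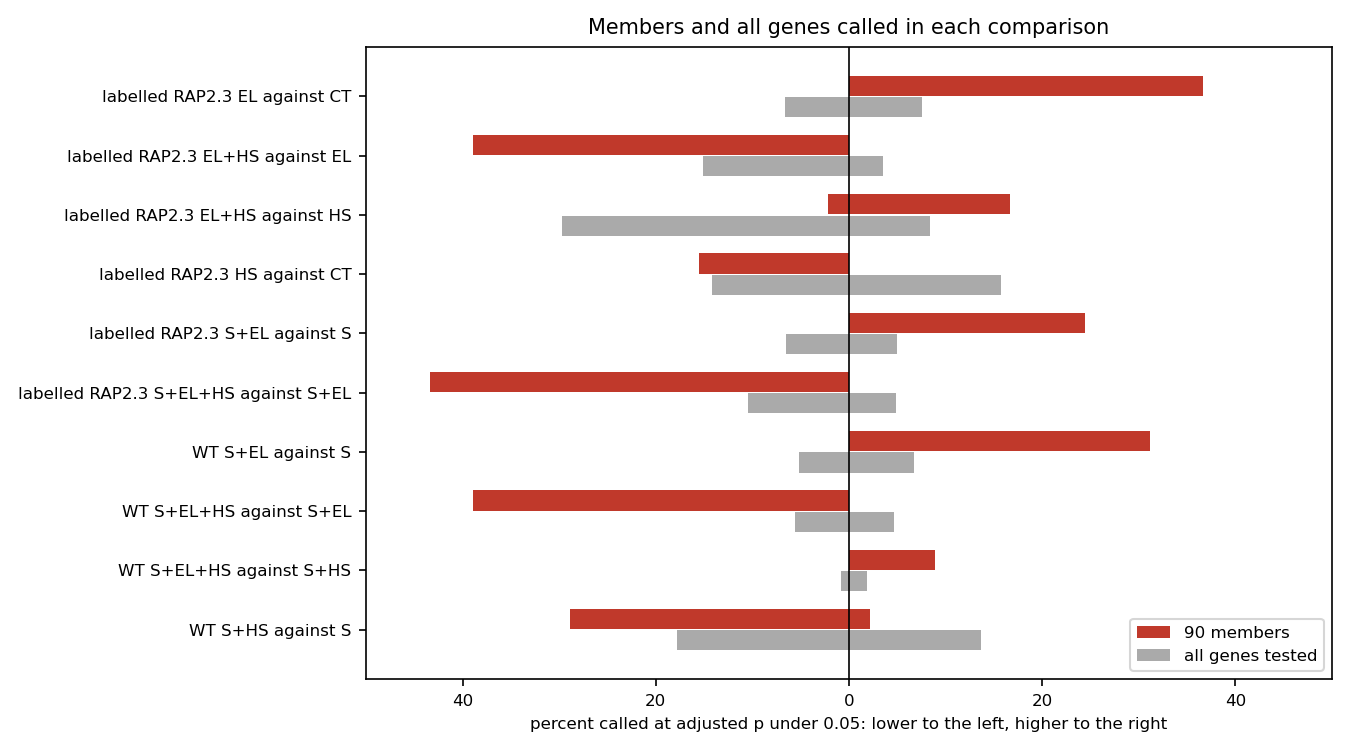
Percent of the 90 members (red) and of all genes tested (grey) called at an adjusted p under 0.05 in 10 comparisons, lower to the left of 0 and higher to the right. The members stand above all genes for light (36.7% of members in EL against CT in the RAP2.3-labelled libraries) and for heat added to light (38.9% lower in EL+HS against EL). Heat alone there gives 15.6% against 14.2%. Member shares are of all 90, of which 70 (RAP2.3-labelled) or 71 (WT) were tested, and gene shares are of genes tested.

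The counts moved with single libraries, and EL replicate 1 stood apart. It was the highest of the 3 EL libraries for 46 of the 60 longer members in the RAP2.3-labelled libraries and for 46 of 60 in WT, against 173 and 232 of the 612 other light-induced genes. Without EL replicate 1, the RAP2.3-labelled libraries gave 17 members higher in EL than in CT and 19 lower in EL+HS than in EL, and without CT replicate 1 or CT replicate 2 they gave 16 and 19 higher in EL. Fitted on the compared libraries alone, they gave 12 and 3. The shares of all genes called under these alternatives are not given here, so these counts cannot be set against a background. WT on salt varied less: leaving out single libraries gave 19 to 27 members higher in S+EL and 23 to 27 lower in S+EL+HS than in S+EL, with 19 without S replicate 2 and 23 without S+EL+HS replicate 1. The rule itself chose 56 genes without WT EL replicate 1, of which 42 were among the 90, and 138 genes without WT EL replicate 3, of which 79 were among the 90.

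Members that feed, build or control phenylpropanoids were mostly called higher in light and lower with added heat. Of 6 with roles in phenylalanine, phenylpropanoid or flavonoid synthesis or its control, 5 were called higher in EL in the RAP2.3-labelled libraries. There 5 were called lower in EL+HS than in EL, against 7.61% higher and 15.1% lower of all genes tested. In WT on salt 5 were called higher in S+EL and all 6 lower in S+EL+HS than in S+EL, against 6.76% and 5.63%. All 4 members of other UDP-glycosyltransferase genes were called higher in light in both comparisons. These role groups were drawn from members already chosen for this pattern, with earlier results of the same data known.

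The promoters of 7 members that hold a MYB-recognition element or a G-box are shown because both are known binding motifs of light and flavonoid regulators of the MYB and HY5 kinds. The MYB-recognition element (ACCTAC) and the G-box (CACGTG) were searched on both strands in 300 bases, 250 before to 50 after the RefSeq transcript start of 65 coding members, and no sequence printed holds both. The MYB-recognition element lay in 8 member promoters (12.3%), against 9.34% of 578 other light-induced genes and 5.45% of 27443 coding genes. The G-box lay in 5 (7.69%), against 14.5% and 7.68%. Capitals mark the motifs, which read GTAGGT where the MYB-recognition element lies on the other strand. In PAL1, UGT84A2 and CCoAOMT1 the element starts at -38, -85 and -213 from the transcript start, in AT1G06000 at -193 and -99, and in AT2G22590 at -123, while the G-box starts at -67 in CHIL and at -40 in BOR5. The sequences are from RefSeq, build TAIR10.1, each 5′ to 3′ on the strand of its gene.
PAL1, chr2:15560706-15561005, minus strand: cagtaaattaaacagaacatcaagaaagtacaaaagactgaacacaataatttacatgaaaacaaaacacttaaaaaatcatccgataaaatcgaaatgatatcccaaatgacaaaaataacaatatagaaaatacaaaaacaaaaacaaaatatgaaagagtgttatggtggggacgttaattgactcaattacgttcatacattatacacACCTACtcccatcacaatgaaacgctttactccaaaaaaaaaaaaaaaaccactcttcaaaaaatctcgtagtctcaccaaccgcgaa
UGT84A2, chr3:7595430-7595729, plus strand: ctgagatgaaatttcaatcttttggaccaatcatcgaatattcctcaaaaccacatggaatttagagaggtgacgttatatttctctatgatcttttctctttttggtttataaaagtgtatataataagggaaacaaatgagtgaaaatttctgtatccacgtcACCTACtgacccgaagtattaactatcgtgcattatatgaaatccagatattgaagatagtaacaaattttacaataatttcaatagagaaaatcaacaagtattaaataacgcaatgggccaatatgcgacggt
CCoAOMT1, chr4:16310159-16310458, plus strand: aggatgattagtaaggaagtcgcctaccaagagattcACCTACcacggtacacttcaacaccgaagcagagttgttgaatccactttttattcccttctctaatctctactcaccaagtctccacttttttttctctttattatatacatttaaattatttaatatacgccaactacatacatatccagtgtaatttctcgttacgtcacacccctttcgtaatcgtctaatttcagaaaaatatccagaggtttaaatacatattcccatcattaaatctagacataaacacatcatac
AT1G06000, chr1:1821845-1822144, minus strand: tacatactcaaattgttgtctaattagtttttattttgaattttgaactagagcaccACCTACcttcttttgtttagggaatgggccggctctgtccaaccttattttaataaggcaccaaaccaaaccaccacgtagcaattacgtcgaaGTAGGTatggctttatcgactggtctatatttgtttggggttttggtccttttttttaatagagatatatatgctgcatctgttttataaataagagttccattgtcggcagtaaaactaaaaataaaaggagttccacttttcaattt
AT2G22590, chr2:9592706-9593005, plus strand: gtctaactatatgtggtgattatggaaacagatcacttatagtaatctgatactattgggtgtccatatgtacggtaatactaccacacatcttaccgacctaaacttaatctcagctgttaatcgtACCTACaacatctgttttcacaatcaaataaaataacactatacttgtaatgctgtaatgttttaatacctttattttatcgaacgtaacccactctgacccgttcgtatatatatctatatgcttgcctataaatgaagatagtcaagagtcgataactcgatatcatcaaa
CHIL, chr5:1563036-1563335, plus strand: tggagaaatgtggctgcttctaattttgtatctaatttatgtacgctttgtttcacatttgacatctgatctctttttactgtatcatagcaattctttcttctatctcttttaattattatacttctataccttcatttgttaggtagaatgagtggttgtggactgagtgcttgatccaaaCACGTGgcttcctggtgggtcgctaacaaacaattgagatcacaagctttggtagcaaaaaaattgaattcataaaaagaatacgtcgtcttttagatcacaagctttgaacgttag
BOR5, chr1:28107572-28107871, plus strand: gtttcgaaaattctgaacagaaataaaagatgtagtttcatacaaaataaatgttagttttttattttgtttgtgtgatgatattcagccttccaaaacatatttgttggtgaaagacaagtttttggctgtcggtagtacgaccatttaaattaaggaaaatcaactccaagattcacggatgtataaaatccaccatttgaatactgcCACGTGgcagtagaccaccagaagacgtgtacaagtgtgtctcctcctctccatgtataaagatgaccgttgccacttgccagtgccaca

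A heat shock element written as GAANNTTC, which reads alike on both strands, lay in 5 of the 65 member promoters (7.69%), against 18.7% of the other light-induced genes and 11.6% of all coding genes. The W-box core TTGAC lay in 38 (58.5%), against 50.9% and 50.5%. These matches describe the letters in the window only.

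PAL1 encodes phenylalanine ammonia-lyase, the entry enzyme of the phenylpropanoid pathway (AT2G37040, chr2:15557367-15560755, minus strand). The RAP2.3-labelled libraries had 43.2, 50.1 and 63.9 FPKM in EL+HS, 327, 152 and 84.1 in EL, 21.6, 49.2 and 43.6 in HS, and 59.5, 57.0 and 98.8 in CT. All EL+HS libraries lay below all EL libraries, and EL replicate 3 was below the highest CT library. The log2 change for EL+HS against EL was -1.62 ± 0.35 (SE, limma adjusted p = 0.00508). EL against CT was 1.20 ± 0.35 (adjusted p = 0.0255), a call lost without any of EL replicates 1 and 2 or CT replicates 1 and 2 (adjusted p = 0.118, 0.0557, 0.1001 and 0.0994).

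On salt the WT libraries gave a tighter picture of PAL1. They held 129, 133 and 138 FPKM in S+EL+HS, 327, 312 and 272 in S+EL, 87.3, 67.2 and 69.2 in S+HS, and 207, 165 and 131 in S. No group overlapped S+EL, and S+HS lay lowest. PAL1 changed by -1.18 ± 0.26 for S+EL+HS against S+EL (adjusted p = 0.00585) and by -1.15 ± 0.26 for S+HS against S (adjusted p = 0.00221).

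CHIL, a chalcone isomerase-like gene whose product assists flavonoid synthesis (AT5G05270, chr5:1563286-1565324, plus strand), had 44.5, 29.9 and 37.2 FPKM in WT S+EL+HS, 116, 116 and 108 in S+EL, 24.2, 15.6 and 14.2 in S+HS, and 56.8, 44.7 and 33.6 in S. Light placed S+EL above every other library, and heat alone placed S+HS below every other. The changes were -1.60 ± 0.28 for S+EL+HS against S+EL (adjusted p = 0.00092), 1.34 ± 0.28 for S+EL against S (adjusted p = 0.00253) and -1.28 ± 0.28 for S+HS against S (adjusted p = 0.00137), and no alternative tried ended these 3 calls. CHIL in the RAP2.3-labelled libraries had 13.1, 21.3 and 20.6 FPKM in EL+HS against 116, 63.8 and 29.4 in EL, a change of -1.70 ± 0.35 (adjusted p = 0.00356).

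UGT84A2, which makes the sinapate glucose ester, a precursor of sunscreen molecules of the leaf surface (AT3G21560, chr3:7595680-7597607, plus strand), had 17.7, 25.3 and 29.7 FPKM in EL+HS, 102, 47.4 and 35.4 in EL, 19.5, 24.2 and 26.4 in HS, and 23.4, 20.5 and 31.2 in CT of the RAP2.3-labelled libraries. EL alone stood above the other groups, which overlapped each other. It changed by 1.14 ± 0.27 for EL against CT (adjusted p = 0.00645) and by -1.19 ± 0.27 for EL+HS against EL (adjusted p = 0.00633). Heat alone left it at -0.08 ± 0.27 against CT (adjusted p = 0.858).

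**Figure D2:**
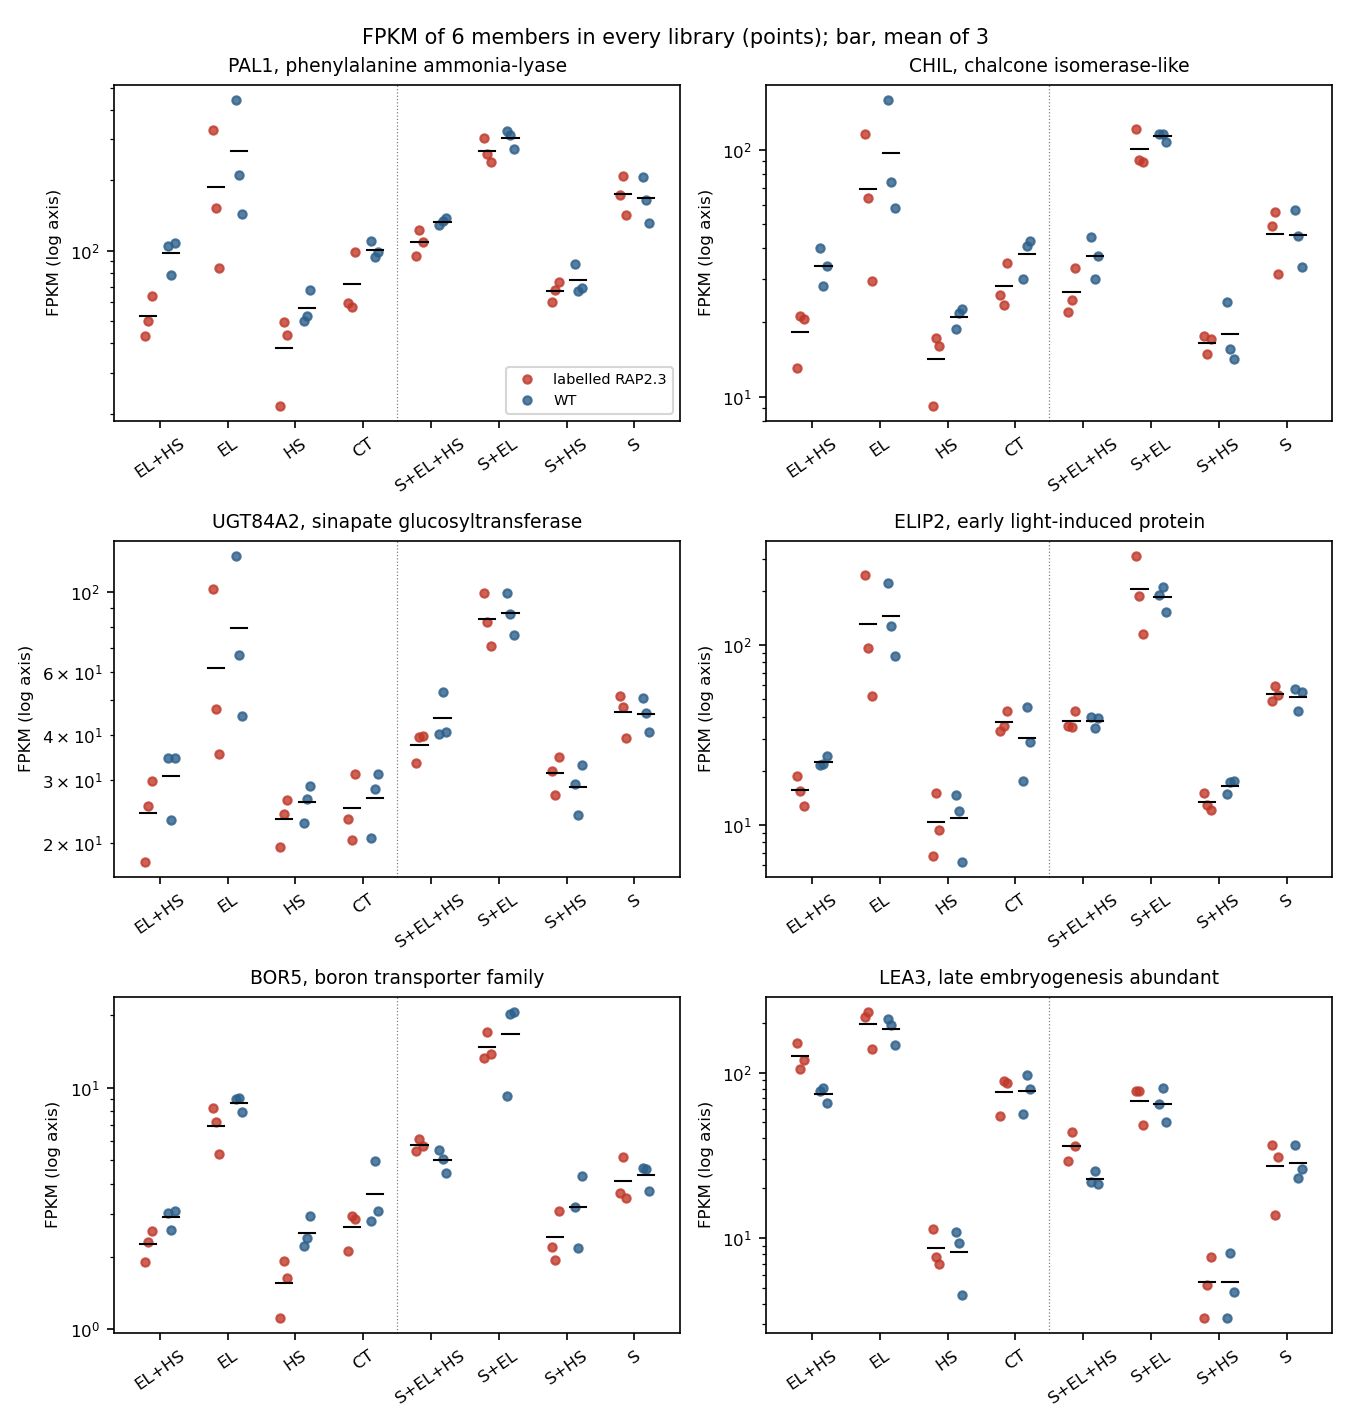
FPKM on a log axis for PAL1, CHIL, UGT84A2, ELIP2, BOR5 and LEA3 in all 48 libraries, labelled RAP2.3 in red and WT in blue, with a bar at the mean of 3. Within each label, the mean of EL lies highest among the groups without salt and that of S+EL among the groups on salt. LEA3 is far lower in HS than in EL+HS (106 to 151 FPKM in EL+HS and 6.93 to 11.4 FPKM in HS, labelled RAP2.3).

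CCoAOMT1, a caffeoyl-CoA methyltransferase of lignin precursor synthesis, had 452, 462 and 463 FPKM in WT S+EL+HS, 830, 864 and 765 in S+EL, and 495, 488 and 379 in S. S+EL stood clear of the other 2 groups, with changes of -0.83 ± 0.19 for S+EL+HS against S+EL (adjusted p = 0.00609) and 0.86 ± 0.19 for S+EL against S (adjusted p = 0.00371). PAP1, the MYB activator of anthocyanin genes, had 6.18, 11.8 and 6.75 FPKM in S+EL+HS, 25.9, 35.8 and 31.1 in S+EL, 6.77, 4.69 and 5.43 in S+HS, and 6.44, 6.68 and 2.32 in S. It rose by 2.46 ± 0.41 for S+EL against S (adjusted p = 0.000371) and fell by 1.82 on the log2 scale for S+EL+HS against S+EL (SE 0.41, adjusted p = 0.00668), while S+HS and S overlapped.

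ADT5, an arogenate dehydratase of phenylalanine synthesis, was the member of this group that light alone did not raise past the threshold. Its S+EL libraries held 49.9, 41.4 and 38.4 FPKM against 41.2, 36.3 and 25.6 FPKM in S, overlapping groups with a change of 0.34 ± 0.26 (adjusted p = 0.466). ADT5 in the RAP2.3-labelled libraries had 6.98, 6.17 and 6.80 FPKM in EL+HS against 30.8, 21.6 and 14.5 in EL, a change of -1.55 ± 0.27 (adjusted p = 0.00124).

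AT2G22590 is another UDP-glycosyltransferase gene (chr2:9592956-9594579, plus strand). Its RAP2.3-labelled libraries had 0.948, 0.470 and 0.469 FPKM in EL+HS, 18.3, 7.56 and 3.15 in EL, 0.654, 1.11 and 1.45 in HS, and 1.64, 0.696 and 2.67 in CT. Every EL library lay above every library of the other groups, with a change of 1.80 ± 0.39 for EL against CT (adjusted p = 0.00366) and of -2.45 ± 0.39 for EL+HS against EL (adjusted p = 0.000643). WT S+EL held 21.9, 24.3 and 20.6 FPKM against 8.29, 5.80 and 3.46 in S, a change of 1.83 ± 0.39 (adjusted p = 0.00337). AT4G27560 changed by 1.28 ± 0.29 in the same comparison (adjusted p = 0.00568), and is 91.6% identical to AT4G27570 over the aligned transcript bases, so reads could be split between the pair.

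AT1G06000 and UGT76E12 completed the 4. AT1G06000 had 21.7, 24.7 and 24.8 FPKM in EL+HS, 137, 50.7 and 32.8 in EL, and 20.5, 16.2 and 33.7 in CT of the RAP2.3-labelled libraries, where 1 CT library reached into the EL range. UGT76E12 had 2.20, 4.43 and 2.76 FPKM in EL+HS, 5.16, 4.69 and 4.23 in EL, 1.59, 0.636 and 0.678 in HS, and 0.897, 1.41 and 1.69 in CT. Its EL+HS libraries lay above HS by 1.07 ± 0.27 (adjusted p = 0.00429), and its EL+HS against EL change of -0.50 ± 0.27 did not pass the test (adjusted p = 0.199). Both genes overlap a gene on the opposite strand, as do BOR5, MYC2, APR3, ProT3, AT3G56260, AT4G34550, AT5G14130 and AT5G05365 among the genes named here. Whether counting used strand is not given in the sources used here, so these values may hold reads of both genes.

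The wider list of 20 phenylpropanoid and flavonoid enzymes, which holds PAL1 and CHIL, moved in the same directions. In the RAP2.3-labelled libraries, 11 of 20 were called higher in EL than in CT, with a median log2 change of 1.11 against -0.02 over all genes tested, and 17 were called lower in EL+HS than in EL (median -1.23 against -0.19). In WT on salt, 16 were called higher in S+EL (median 1.29 against -0.01) and 16 lower in S+EL+HS than in S+EL (median -1.27 against -0.04). Heat alone lowered 5 in the RAP2.3-labelled libraries and 13 in WT on salt, against 14.2% and 17.8% of all genes tested. F3H, flavanone 3-hydroxylase, had 17.64, 17.93 and 18.15 FPKM in EL+HS, 182, 83.2 and 44.5 in EL, and 21.1, 20.6 and 33.5 in CT of the RAP2.3-labelled libraries, with EL above the others. The list was chosen with results of these data known.

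**Figure D3:**
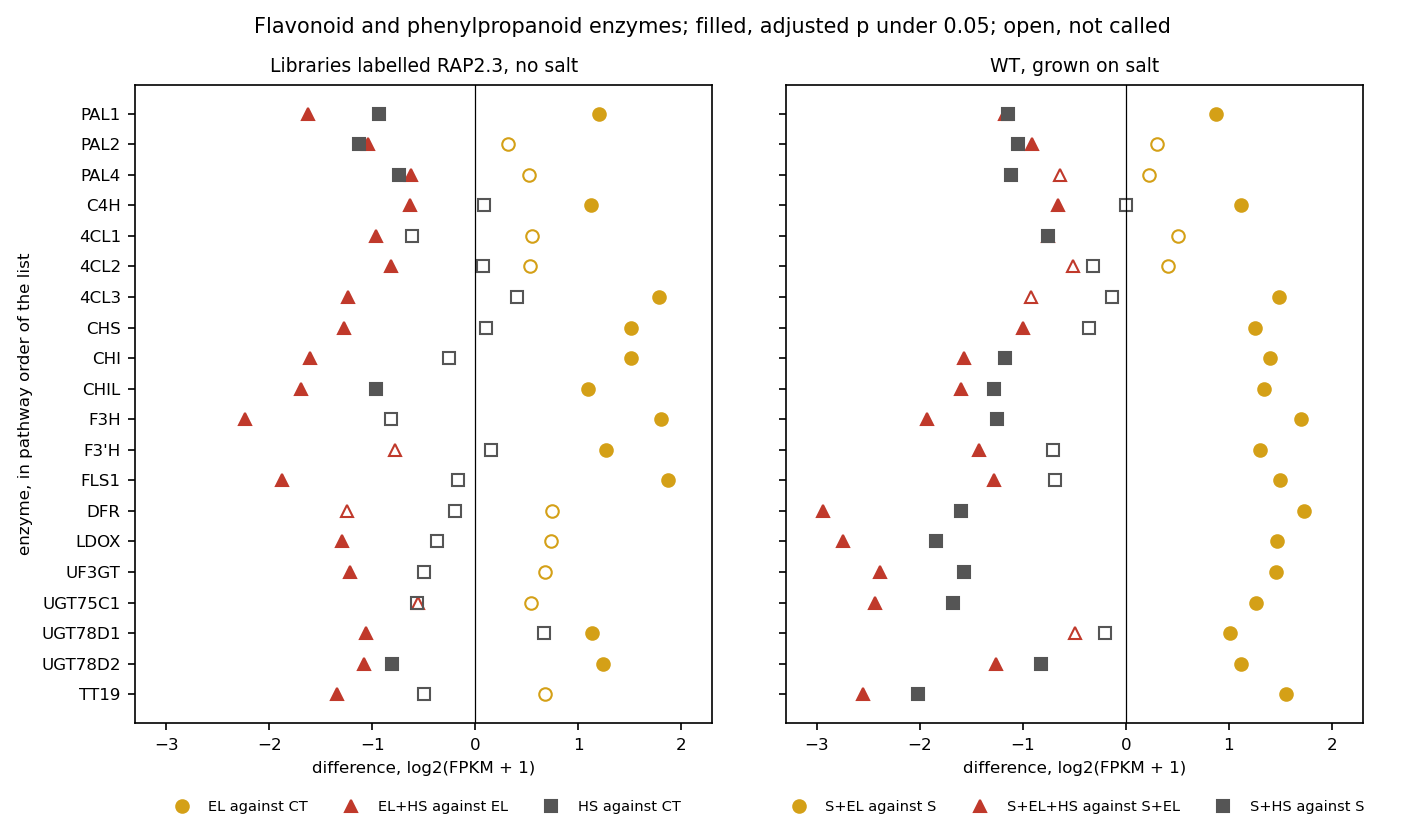
Change in log2(FPKM + 1) of 20 phenylpropanoid and flavonoid enzymes for EL against CT (circles), EL+HS against EL (triangles) and HS against CT (squares), in RAP2.3-labelled libraries without salt (left) and the matching WT groups on salt (right), filled where the adjusted p was under 0.05. Light lies to the right of 0 and heat added to light to the left for most enzymes, with 11 and 16 of 20 called higher in light.

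Of 12 regulators of flavonoids and light, MYB12, PAP1, HY5 and HYH were called higher in EL than in CT in the RAP2.3-labelled libraries, and MYB12, EGL3, HY5 and HYH lower in EL+HS than in EL. In WT on salt, MYB12, PAP1, PAP2, TT8 and HY5 were called higher in S+EL than in S, and MYB11, MYB12, PAP1, PAP2 and TT8 lower in S+EL+HS than in S+EL, where HY5 was at -0.29, HYH at -0.31 and EGL3 at -0.31 (adjusted p = 0.430, 0.349 and 0.444). HY5, the bZIP factor of light signalling, was not a member: it had 33.0, 28.9 and 22.2 FPKM in EL+HS, 39.9, 49.2 and 43.2 in EL, and 18.5, 14.1 and 20.4 in CT, so its EL+HS libraries stayed above CT.

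ELIP2 encodes an early light-induced protein of the thylakoid (AT4G14690, chr4:8418242-8419325, plus strand), and heat alone also lowered it. Its level in the RAP2.3-labelled libraries was 18.8, 15.4 and 12.8 FPKM in EL+HS, 244, 96.6 and 52.1 in EL, 6.68, 15.01 and 9.40 in HS, and 33.1, 35.6 and 42.8 in CT. EL lay above all other groups, and both heat groups lay below CT, with -2.72 ± 0.39 for EL+HS against EL (adjusted p = 0.000343) and -1.81 ± 0.39 for HS against CT (adjusted p = 0.00144). EL against CT was 1.51 ± 0.39 (adjusted p = 0.0121), with an adjusted p of 0.0539 without EL replicate 1 and 0.0513 without CT replicate 1.

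WT on salt showed the same order for ELIP2. The libraries held 39.7, 34.8 and 39.3 FPKM in S+EL+HS, 190, 209 and 153 in S+EL, 14.9, 17.2 and 17.5 in S+HS, and 56.8, 43.2 and 54.9 in S, and none of the 4 groups overlapped. The changes were -2.24 ± 0.31 for S+EL+HS against S+EL (adjusted p = 0.000137), 1.81 ± 0.31 for S+EL against S (adjusted p = 0.000406) and -1.58 ± 0.31 for S+HS against S (adjusted p = 0.000544). Its close relative ELIP1 was not a member. ELIP1 had 38.2, 42.9 and 46.0 FPKM in HS against 14.5, 8.39 and 17.9 in CT of the RAP2.3-labelled libraries, a rise of 1.62 (adjusted p = 2.644e-05), and its EL+HS against EL change was -0.35 (adjusted p = 0.297).

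LEA3, a late embryogenesis abundant protein of a family known for protection in drying tissue (AT1G02820, chr1:623656-624567, minus strand), met the rule in another way. LEA3 in the RAP2.3-labelled libraries had 151, 106 and 119 FPKM in EL+HS, 216, 233 and 139 in EL, 11.4, 7.64 and 6.93 in HS, and 54.4, 89.2 and 86.4 in CT. Heat alone put it far below every other group, and light still raised it at 33 °C, above CT. The changes were 3.72 ± 0.32 for EL+HS against HS (adjusted p = 6.12e-07) and -3.003 ± 0.32 for HS against CT (adjusted p = 9.84e-07), while EL+HS against EL was -0.62 ± 0.32 (adjusted p = 0.179). The light response at 33 °C exceeded that at 21 °C by 2.38 ± 0.46 (adjusted p = 0.00251).

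On salt in WT, LEA3 had 21.7, 25.4 and 21.3 FPKM in S+EL+HS, 64.2, 80.1 and 50.1 in S+EL, 3.29, 8.15 and 4.70 in S+HS, and 36.4, 22.9 and 26.3 in S. S+EL+HS again lay well above S+HS, by 1.97 ± 0.28 (adjusted p = 0.00048). S+EL+HS lay below S+EL, with a change of -1.45 ± 0.28 (adjusted p = 0.00224), and against S it was at -0.29 ± 0.28 (adjusted p = 0.493). At 21 °C, S+EL lay above S by 1.16 ± 0.28 (adjusted p = 0.00928), a call lost without S replicate 2 (0.055) or S+EL replicate 2 (0.0675). The light-by-heat term on salt, 0.81 ± 0.40, did not pass the test (adjusted p = 0.295).

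Other members also kept a light response at 33 °C. Among the 90, 15 in the RAP2.3-labelled libraries were called higher in EL+HS than in HS and 2 lower (AT4G11190 and AT5G05365), against backgrounds of 8.37% and 29.7%. In WT on salt, 8 of 90 were called higher in S+EL+HS than in S+HS and 0 lower, against 1.90% and 0.834%; these were LEA3, AT1G57590, AT1G76960, SCPL9, AT2G34810, AT3G56290, ELIP2 and CHIL. LEA3 and AT3G56290 were called in both. These 2 comparisons were added after the data were seen, and leaving out single libraries gave 12 to 14 in the RAP2.3-labelled libraries and 4 to 6 on salt, with 4 without S+EL+HS replicate 1 and 5 without S+EL+HS replicate 2, S+HS replicate 2 or S+HS replicate 3. The 2 called lower became 5 without HS replicate 1 and 0 without EL+HS replicate 1 or HS replicate 3. On salt, of 11 alternatives, SCPL9 lost the call in 9, ELIP2 in 8, CHIL in 7 and AT1G57590 in 1, and LEA3, AT1G76960, AT2G34810 and AT3G56290 in 0.

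**Figure D4:**
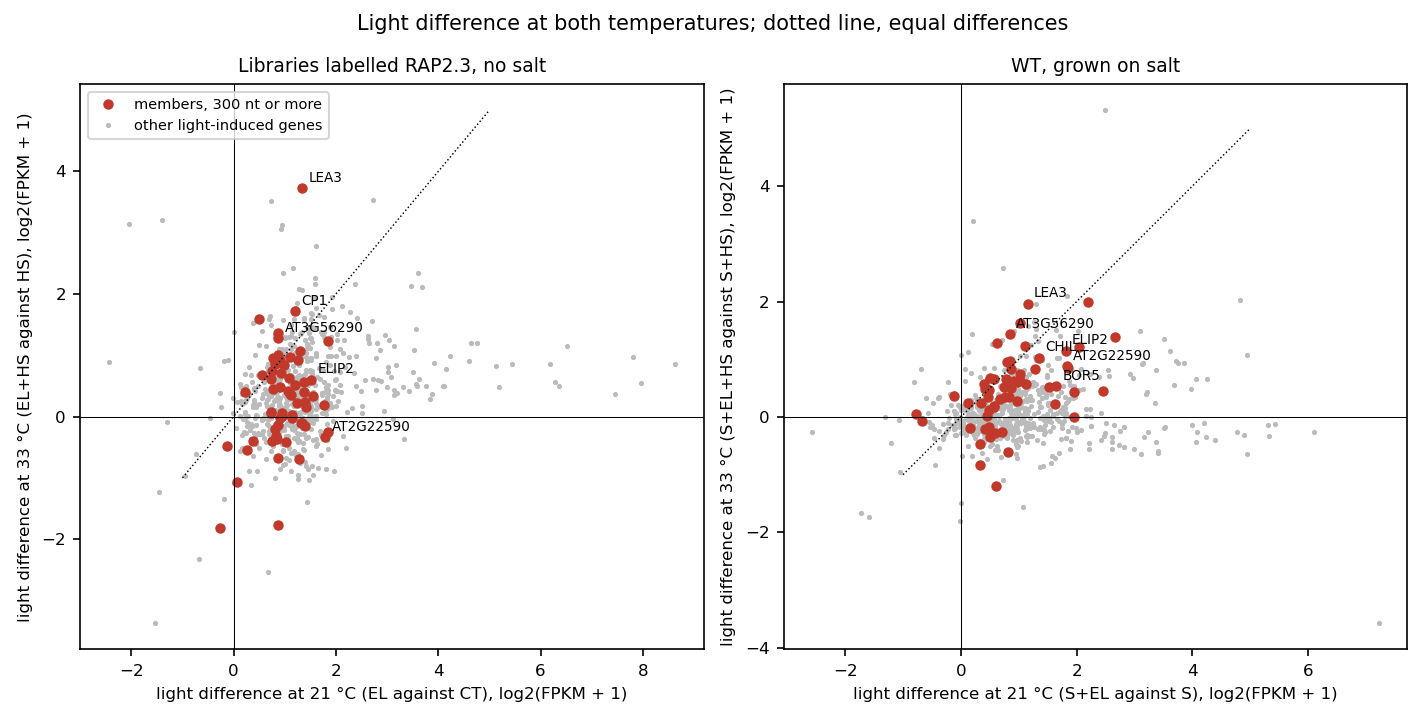
Light difference at 33 °C (vertical) against that at 21 °C (horizontal), in log2(FPKM + 1), for 60 members with transcripts of 300 nt or more (red) and the other light-induced genes (grey), in RAP2.3-labelled libraries without salt (left) and WT on salt (right). Most members lie under the dotted line of equal differences, and LEA3 lies above it in both panels (3.72 and 1.97 at 33 °C).

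CP1, a calcium-binding protein, and AT3G56290, annotated as a potassium transporter, were of the same kind. CP1 had 148, 131 and 188 FPKM in EL+HS, 430, 255 and 165 in EL, 45.9, 53.8 and 39.5 in HS, and 79.8, 118 and 157 in CT of the RAP2.3-labelled libraries. Its EL+HS libraries lay above HS, by 1.72 ± 0.26 (adjusted p = 9.66e-05), and overlapped CT. AT3G56290 had 129, 119 and 105 FPKM in EL+HS, 316, 214 and 162 in EL, 48.8, 48.6 and 46.2 in HS, and 106, 138 and 120 in CT, which put EL+HS level with CT and HS below both. It changed by 1.27 ± 0.19 for EL+HS against HS (adjusted p = 6.2e-05), and by 1.43 ± 0.24 for S+EL+HS against S+HS in WT (adjusted p = 0.00149).

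The members were compared with the sum of the single effects through the light response at 33 °C minus that at 21 °C. In the RAP2.3-labelled libraries, 7 of 90 were called below the sum and 1 above (LEA3), against 11.7% and 3.04% of all genes tested. The 7 are 7.78% of all 90 members and 7 of the 70 tested, both below the 11.7% of all genes tested. WT on salt had 3 called below and 0 above, against 2.62% and 2.15%. The 7 were BOR5, AT2G04050, the U2 snRNA U2.10b/12, AT2G22590, SCPL9, AT4G17470 and AT5G05365, and the 3 were TBL37, UGT76E12 and AT3G56260. Among the other light-induced genes, 220 of 612 were called below the sum in the RAP2.3-labelled libraries and 191 on salt in WT. Leaving out single libraries moved the count of 7 to between 3 (without EL replicate 1, EL+HS replicate 1, CT replicate 2 or HS replicate 3) and 20 (without EL replicate 3), with 4 without HS replicate 2, 11 without CT replicate 3 and 17 without HS replicate 1. The count of 3 became 5 without S+EL replicate 1 and 1 without S replicate 2 or 3, S+EL replicate 2 or 3, S+HS replicate 3 or S+EL+HS replicate 3. Of the 17 alternatives, BOR5 lost the call in 14, AT5G05365 in 11, SCPL9 and UGT76E12 in 10, AT3G56260 in 6 and AT4G17470 in 5, and AT2G04050, TBL37 and LEA3 in 0.

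AT2G22590 and AT2G04050 were among the 7. AT2G22590 lay at -2.14 ± 0.55 (adjusted p = 0.0138). AT2G04050, a MATE efflux family gene (chr2:1337180-1339468, minus strand), had 2.40, 1.73 and 1.93 FPKM in EL+HS, 6.23, 7.99 and 9.88 in EL, 3.001, 3.13 and 5.85 in HS, and 3.65, 2.03 and 2.46 in CT. EL stood above the rest and EL+HS lay at the low end, for a departure of -1.97 ± 0.40 (adjusted p = 0.00392), and its transcript is 90.3% identical to that of AT2G04070 over the aligned bases. On salt in WT the same gene had 16.4, 20.8 and 20.6 FPKM in S+EL+HS, 15.98, 18.1 and 17.7 in S+EL, and 12.2, 18.7 and 17.1 in S, with no group apart (0.12 ± 0.28 for S+EL against S, adjusted p = 0.858).

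Heat alone lowered some members. In the RAP2.3-labelled libraries, 14 of 90 were called lower in HS than in CT and 0 higher, against backgrounds of 14.2% lower and 15.7% higher. The 14 are 15.6% of all 90 members, near the 14.2% of all genes tested, and 14 of the 70 members tested, a higher share. The backgrounds are shares of genes tested. This count of lower calls alone does not set the members apart from all genes. In WT on salt, 26 of 90 were lower in S+HS than in S and 2 higher (APR3 and the snoRNA AT4G39363), against 17.8% and 13.7%. The call of APR3 was lost without S replicate 2, S+HS replicate 2 or S+HS replicate 3 (adjusted p = 0.0900, 0.0935 and 0.103), and the count of 26 was 15 without S replicate 1 and 16 without S+HS replicate 2. The 12 shared by both, 85.7% of the 14 and 46.2% of the 26, included LEA3, ELIP2, PAL1, CHIL, DTX35, ABCI20, AT3G52740 and AT3G56290. Among the other light-induced genes the balance was the opposite: 296 of 612 were called higher and 27 lower in HS than in CT in the RAP2.3-labelled libraries. In the chaperone list of heat shock, all 10 genes were called higher in HS and also in EL than in CT, with HSP101 at 4.79 for HS.

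**Figure D5:**
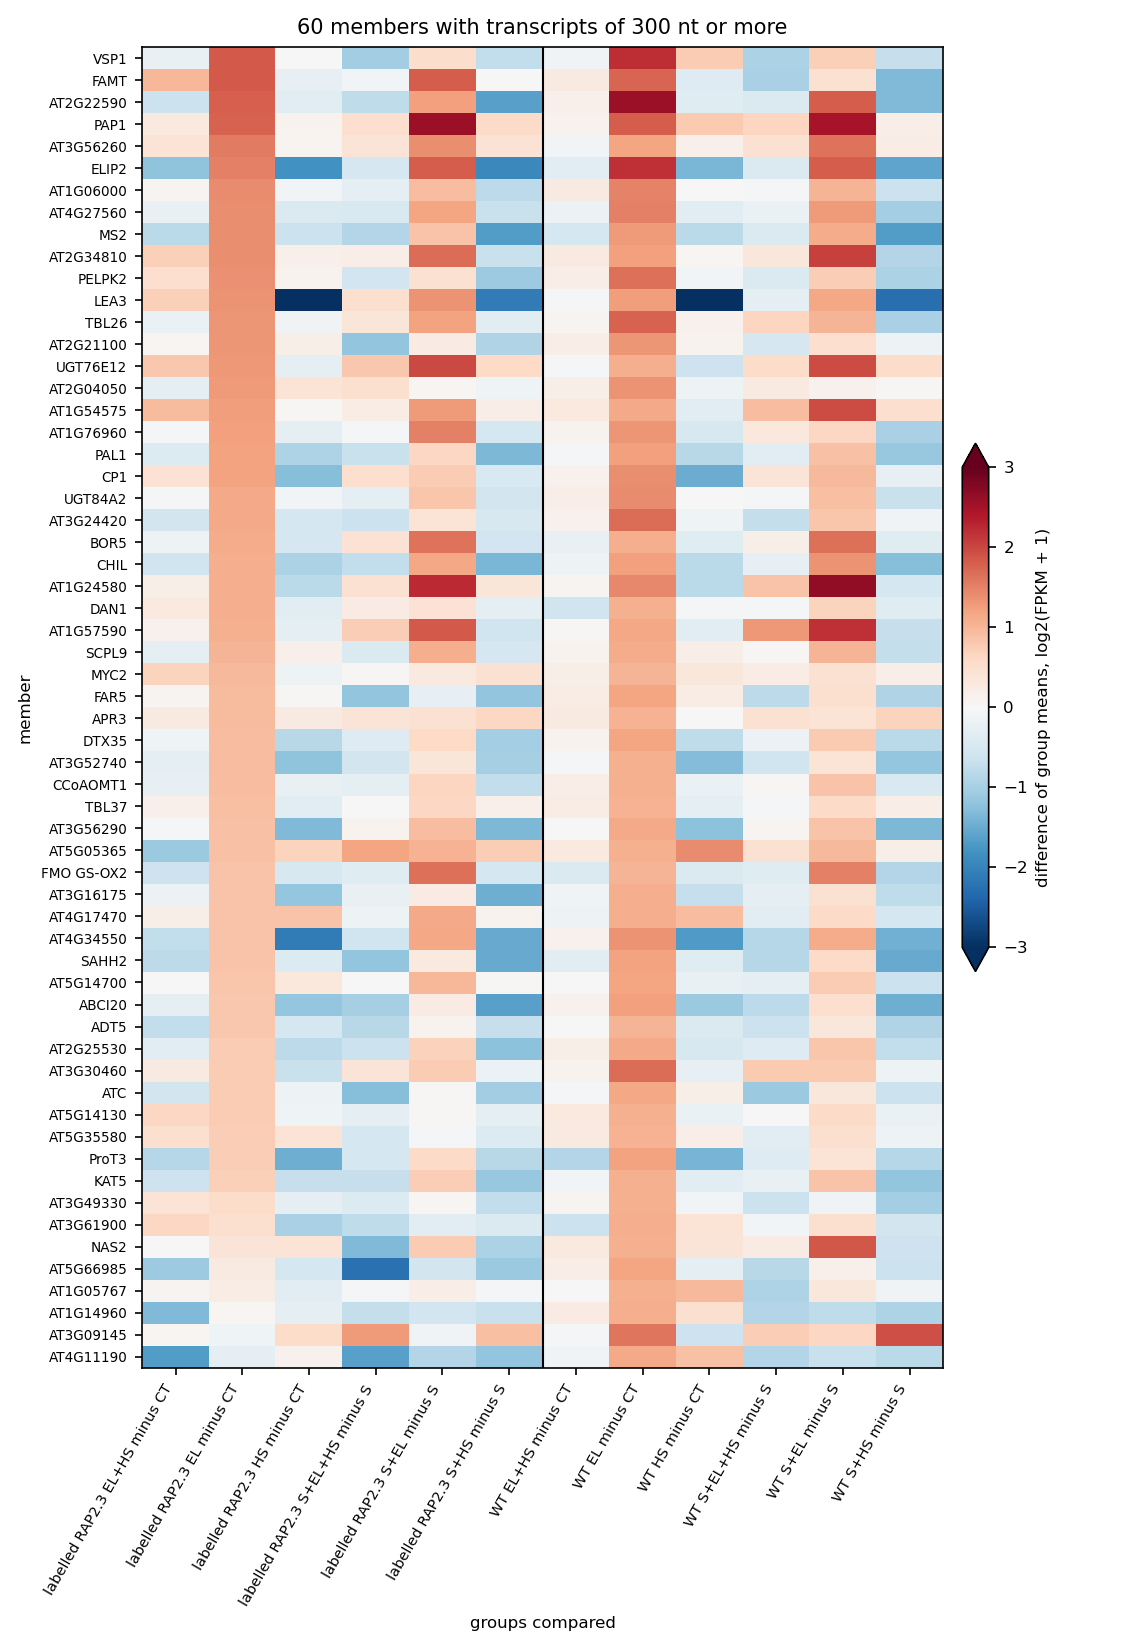
Difference of group means in log2(FPKM + 1) from CT or S for 60 members with transcripts of 300 nt or more (down) in 12 groups (across), labelled RAP2.3 left of WT, in the order of the labelled RAP2.3 EL difference. EL and S+EL columns are red for most members, and HS columns run blue for members such as LEA3 (-3.003 in HS labelled RAP2.3). WT EL+HS is at most 0.3, as the rule required. The rule set no lower limit, and ProT3 lies at -0.89 there.

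Of the 7 transport and metal members, 5 were called lower in HS than in CT in the RAP2.3-labelled libraries, against 14.2% of all genes tested. There 5 were called higher in EL than in CT, against 7.61%, and 6 lower in EL+HS than in EL, against 15.1%. For EL+HS against HS 3 were called higher, against 8.37%. BOR5, of the boron transporter family (AT1G74810, chr1:28107822-28111940, plus strand), had 1.91, 2.29 and 2.55 FPKM in EL+HS, 8.25, 7.20 and 5.32 in EL, 1.11, 1.91 and 1.64 in HS, and 2.11, 2.95 and 2.85 in CT. EL stood apart from all other groups, and the calls for EL against CT (1.11 ± 0.18, adjusted p = 0.000217) and for EL+HS against EL (-1.27 ± 0.18, adjusted p = 0.000257) held under every alternative tried. In WT on salt, S+EL had 9.25, 20.1 and 20.6 FPKM against 4.64, 4.62 and 3.75 in S, a change of 1.65 ± 0.23 (adjusted p = 6.66e-05).

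DTX35, also named flower flavonoid transporter, had 57.8, 52.1 and 57.2 FPKM in EL+HS, 154, 124 and 81.1 in EL, 30.0, 34.1 and 36.8 in HS, and 56.3, 51.6 and 76.3 in CT of the RAP2.3-labelled libraries. EL was above all other groups and HS below all. It changed by -1.05 ± 0.17 for EL+HS against EL (adjusted p = 0.000778), by -0.84 ± 0.17 for HS against CT (adjusted p = 0.00091) and by 0.71 ± 0.17 for EL+HS against HS (adjusted p = 0.00292). ABCI20, a non-intrinsic ABC protein, had 19.1, 17.7 and 19.96 FPKM in EL+HS, 63.8, 44.0 and 26.01 in EL, 10.4, 9.71 and 9.79 in HS, and 23.4, 18.1 and 29.9 in CT. HS was again lowest, and EL+HS exceeded it by 0.86 ± 0.23 (adjusted p = 0.00587). DTX35 overlaps AT4G25635 on its own strand. NAS2, a nicotianamine synthase of metal transport, had 11.8, 7.74 and 7.65 FPKM in S+EL+HS, 19.3, 39.3 and 32.7 in S+EL, and 10.6, 11.3 and 3.08 in S of WT, with S+EL above both. Its S+EL against S change of 1.85 ± 0.53 (adjusted p = 0.0267) was lost without S replicate 3 (adjusted p = 0.171), S+EL replicate 2 (0.124) or S+EL replicate 3 (0.0899).

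Of the 4 genes of methionine, sulfur and glucosinolate metabolism, 3 in the RAP2.3-labelled libraries were called lower in EL+HS than in EL (15.1% of all genes tested) and 1 higher in EL than in CT (7.61% of all genes tested). WT on salt gave the same counts, 3 lower in S+EL+HS than in S+EL and 1 higher in S+EL than in S, against 5.63% and 6.76%. MS2, a methionine synthase, had 31.2, 35.3 and 44.9 FPKM in EL+HS, 571, 124 and 71.9 in EL, 18.5, 53.2 and 69.2 in HS, and 55.3, 56.9 and 87.9 in CT of the RAP2.3-labelled libraries. One EL library was several times the others and EL overlapped CT, and EL against CT did not pass the test (1.39 ± 0.51, adjusted p = 0.0733), while EL+HS against EL did (-2.20 ± 0.51, adjusted p = 0.00758). SAHH2, S-adenosylhomocysteine hydrolase, behaved likewise, with 27.4, 36.1 and 53.0 FPKM in EL+HS against 330, 84.8 and 57.1 in EL; the call (-1.62 ± 0.44, adjusted p = 0.0183) was lost without EL replicate 1 (0.124) or EL+HS replicate 1 (0.0717).

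FMO GS-OX2, which oxidises the side chain of glucosinolates, had 5.63, 4.26 and 2.71 FPKM in WT S+EL+HS, 15.9, 19.3 and 17.38 in S+EL, and 6.24, 6.38 and 4.05 in S. S+EL stood apart, by 1.52 ± 0.29 from S (adjusted p = 0.00138) and with S+EL+HS against S+EL at -1.87 ± 0.29 (adjusted p = 0.000418). APR3, an adenylylsulfate reductase of sulfate assimilation, was high in all 4 salt groups of WT, with 245, 333 and 251 FPKM in S+EL+HS, 249, 280 and 267 in S+EL, 244, 352 and 368 in S+HS, and 209, 180 and 210 in S. There the light groups overlapped the heat groups, and S+EL against S was 0.41 ± 0.22 (adjusted p = 0.265). Of the 17 genes of glucosinolate synthesis listed, none of them a member, 1 was called higher in EL and 12 lower in EL+HS than in EL in the RAP2.3-labelled libraries, and 0 and 4 in the matching WT comparisons on salt.

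Jasmonate and defence genes differed between the comparisons in how many were called. Of 5 members, 4 were called higher in EL than in CT in the RAP2.3-labelled libraries, against 7.61% of all genes tested. For S+EL against S in WT 0 were called higher, against 6.76%. The difference between these was not tested. MYC2, the bHLH factor of jasmonate signalling, had 13.6, 12.8 and 16.7 FPKM in EL+HS, 19.8, 15.4 and 18.9 in EL, 4.35, 9.02 and 10.7 in HS, and 9.88, 8.28 and 7.75 in CT. Both light groups lay above both others, and EL+HS against EL was -0.31 ± 0.32 (adjusted p = 0.516), so heat did not lower it past the threshold. Its EL against CT change, 0.98 ± 0.32 (adjusted p = 0.0452), was lost when any 1 of EL replicates 1 to 3 or CT replicates 1 to 3 was left out (adjusted p = 0.0673 to 0.115).

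FAMT, a farnesoic acid methyltransferase, had 1.79, 4.02 and 3.37 FPKM in EL+HS, 10.1, 3.95 and 5.52 in EL, 0.333, 1.11 and 0.679 in HS, and 0.952, 0.866 and 1.13 in CT of the RAP2.3-labelled libraries. Both light groups lay above both groups at low light, by 1.84 ± 0.30 for EL against CT (adjusted p = 0.000318) and 1.23 ± 0.30 for EL+HS against HS (adjusted p = 0.00366). VSP1, a vegetative storage protein that jasmonate induces, had 5.15, 6.59 and 2.02 FPKM in EL+HS, 14.7, 10.9 and 55.4 in EL, and 6.92, 2.21 and 7.94 in CT, and on salt it was high already in S (119, 51.4 and 34.1 FPKM in WT). Here EL replicate 3, not replicate 1, was highest. The EL against CT call (1.85 ± 0.52, adjusted p = 0.0221) was lost without EL replicate 3 (0.143) or CT replicate 2 (0.125).

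AT2G34810, of the FAD-binding berberine family, kept every light call under the alternatives tried. WT on salt had 18.6, 18.7 and 18.3 FPKM in S+EL+HS, 50.3, 79.0 and 61.1 in S+EL, 8.38, 6.91 and 6.96 in S+HS, and 19.0, 14.4 and 10.8 in S. S+EL stood far above, S+EL+HS was within the range of S, and S+HS was below it, with 2.05 ± 0.22 for S+EL against S (adjusted p = 4.43e-06) and -1.70 ± 0.22 for S+EL+HS against S+EL (adjusted p = 8.85e-05). S+EL+HS exceeded S+HS by 1.22 ± 0.22 (adjusted p = 0.00309). In the RAP2.3-labelled libraries it had 10.8, 15.2 and 18.9 FPKM in EL+HS, 24.3, 25.3 and 21.8 in EL, and 6.97, 7.39 and 11.7 in CT, a light change of 1.38 ± 0.28 (adjusted p = 0.00215), and there EL+HS was also above CT, by 0.72 ± 0.28 (adjusted p = 0.0461).

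Cell wall genes and genes of other kinds filled out the set. TBL37, of a family that acetylates wall polysaccharides, had 28.3, 30.6 and 34.7 FPKM in EL+HS, 56.3, 52.4 and 51.2 in EL, 24.6, 19.2 and 22.6 in HS, and 24.4, 31.5 and 28.7 in CT of the RAP2.3-labelled libraries. EL was clear of the rest and its replicates were close, for a change of 0.90 ± 0.14 (adjusted p = 0.000213). On salt in WT its light response at 33 °C fell short of that at 21 °C by a term of -0.86 ± 0.19 (adjusted p = 0.0129), which no alternative ended.

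AT1G57590, a pectin acetylesterase family gene, had 14.1, 7.55 and 6.74 FPKM in WT S+EL+HS, 12.95, 24.5 and 16.8 in S+EL, 1.51, 1.62 and 1.38 in S+HS, and 3.11, 3.77 and 2.35 in S. Both light groups lay above both others, with 2.20 ± 0.40 for S+EL against S (adjusted p = 0.000936); S+EL+HS against S+HS was 2.0 ± 0.40 (adjusted p = 0.00769), lost without S+EL+HS replicate 1 (0.069). AT1G24580, a RING/U-box protein gene, rose in light on salt, with 31.2, 57.3 and 34.1 FPKM in S+EL against 8.16, 3.49 and 5.39 in S, groups well apart with a change of 2.66 ± 0.39 (adjusted p = 9.92e-05). It also fell with added heat, by 1.79 on the log2 scale (SE 0.39, adjusted p = 0.00524).

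AT3G52740 and AT3G56260 are named here by locus only. AT3G52740 had 7.14, 10.97 and 9.42 FPKM in HS against 23.9, 20.8 and 22.1 in CT of the RAP2.3-labelled libraries, groups apart by -1.21 ± 0.20 (adjusted p = 0.000141). AT3G56260 had 6.41, 4.61 and 4.15 FPKM in HS against 4.07, 3.51 and 6.83 in CT, groups that overlapped (0.08 ± 0.32, adjusted p = 0.881), and rose in light by 1.63 ± 0.25 in WT on salt (adjusted p = 0.000137).

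AT1G54575, also named by locus only, had a light response at 33 °C in the RAP2.3-labelled libraries. It had 20.1, 15.3 and 10.8 FPKM in EL+HS, 26.8, 16.8 and 14.4 in EL, 9.502, 10.1 and 4.22 in HS, and 8.36, 7.16 and 6.37 in CT. Both light groups were above CT, with 1.26 ± 0.26 for EL against CT (adjusted p = 0.00243) and -0.30 ± 0.26 for EL+HS against EL (adjusted p = 0.427), so the drop in heat did not pass the test here. EL+HS exceeded HS by 0.92 ± 0.26 (adjusted p = 0.00896), a call lost without EL+HS replicate 1 (0.0573) or HS replicate 3 (0.0857). AT4G34550, an F-box protein gene, nearly vanished in heat alone, with 0.167, 0.0477 and 0.216 FPKM in HS against 3.02, 3.60 and 5.28 in CT, a change of -2.10 ± 0.44 (adjusted p = 0.00109). AT3G24420, an alpha/beta-hydrolase gene, had 1.83, 1.27 and 1.22 FPKM in EL+HS against 19.8, 5.27 and 2.58 in EL; its call (-1.68 ± 0.42, adjusted p = 0.0123) was lost without EL replicate 1 (0.082).

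Few of the short RNAs could be tested. Of 30 members with a transcript under 300 nt or none in RefSeq, 10 passed the filter in the RAP2.3-labelled libraries and 1 was called for light, U2.10b/12. This U2 snRNA had 0, 3.69 and 0 FPKM in EL+HS, 19.1, 32.1 and 3.51 in EL, and 0 in all HS and CT libraries. It was above 0 in each EL library and reached the filter of 1 FPKM in 3 libraries only through EL, the group where it is high, so its call is no evidence of a difference; it is 1 of the 33 called higher in EL, the 35 called lower in EL+HS and the 7 called below the sum. For S+EL against S in the RAP2.3-labelled libraries the change was 0.00. Its sequence is 98.97% identical to that of AT2G04375, another U2 gene, so reads may be split among copies. The snoRNA AT4G39363 was at 3357, 661 and 926 FPKM in WT S+HS and 0 in all 3 S libraries, called higher in heat alone.

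The RAP2.3-labelled libraries did not differ detectably from WT in the light response of these genes on salt. At S+EL, 0 of the 90 members were called between the labels in either direction (limma, 81 tested, 0.0234% of all genes called), with 3 under an unadjusted p of 0.05 and 1 called without WT S+EL replicate 2. For the difference in light response on salt, 0 were called (0.00% of all genes), with 2 under an unadjusted p of 0.05. Without salt the same contrast would use the libraries of the rule and was not tested.

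Of the 5 root markers, PYK10, a root and hypocotyl glucosidase, made up most of the summed level, at 657.6 to 4105 FPKM, against at most 42.5 FPKM for EXPA7, 8.51 for COBL9, 2.85 for RHD6 and 0.899 for PLT1. The sum was 667.9 to 1287 FPKM in EL+HS, against 1155 to 1811 FPKM in EL of the RAP2.3-labelled libraries, and 1608 to 2105 FPKM in S+EL+HS, against 2628 to 2917 FPKM in S+EL of WT. PYK10 fell by 0.62 on the log2 scale in the salt comparison (adjusted p = 0.0245) and was at -0.59 in the other (adjusted p = 0.068). EXPA7 was at 0.32 and 0.66, RHD6 at 0.07 and 0.27 and COBL9 at -0.29 and -0.35 in the same comparisons, none past the threshold, and PLT1 was too low to be tested. For light alone the ranges overlapped in the RAP2.3-labelled libraries without salt: 1155 to 1811 FPKM in EL and 1286 to 2043 FPKM in CT. They also overlapped in WT on salt, at 2628 to 2917 FPKM in S+EL and 2665 to 4139 FPKM in S. In the RAP2.3-labelled libraries on salt they did not, at 1988 to 2357 FPKM in S+EL and 3165 to 3856 FPKM in S. The part of these markers in the members' changes was not tested.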

How the data were processed

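Values were FPKM per gene in 2 deposited tables, one per genotype, which the authors made with HISAT2 and Cufflinks against TAIR10, per the submitters' processing notes (versions, annotation release and use of strand are not given in the sources used here). Read depth is unknown, so no counting interval is given. The 90 members, the gene and role lists, the motifs and the tests were chosen with earlier results of these data known. From the FPKM values, repeated loci (2 of 32826 per table) were summed, values below 0.01 FPKM were counted as 0 in counts of zeros and of overlap, and log2(FPKM + 1) was fitted with limma 3.58.1 (R 4.3.3) with a mean trend, over the 24 libraries of a genotype, or all 48 for contrasts between genotypes. Genes with at least 1 FPKM in at least 3 libraries were tested, which was 20592 in the RAP2.3-labelled table, 20744 in WT and 21322 in both. P-values were adjusted by Benjamini-Hochberg over all genes tested. A fold change on this scale understates the change of low genes. Replicates are biological repeats per the labels, and same-numbered libraries were checked for pairing. The procedure was tested on simulated data. Named genes were the 10 called members with the largest changes for light and for added heat in each of the RAP2.3-labelled libraries and WT on salt, members on the pathway lists, up to 3 genes nearest each limit of the rule on either side, members at least 1 above control on the log2 scale in light with heat, and the 5 with the highest mean in WT EL; genes described outside that rule were chosen after their values were seen. Comparisons of light at 33 °C against heat alone were also added after the data were seen.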

Additional observations from a re-analysis of the deposited data

Results flagged for a closer look

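For AT2G04050, the MATE efflux gene, the libraries at 33 °C lay in opposite orders under the 2 labels. All 90 members were screened for such opposite orders over many pairs of groups, and only this gene had one. With 3 libraries per group, how often such a case arises without a real difference was not tested. The RAP2.3-labelled libraries had 2.40, 1.73 and 1.93 FPKM in EL+HS and 3.001, 3.13 and 5.85 FPKM in HS, so every EL+HS library was below every HS library, but the change of -0.69 did not pass the test (limma, adjusted p = 0.0649). WT had 3.72, 2.97 and 3.33 FPKM in EL+HS and 2.91, 1.79 and 2.65 FPKM in HS, so every EL+HS library was above every HS library. The difference between the labels in this light response was -1.0301 on the log2(FPKM + 1) scale, and neither it nor the WT change was tested because WT EL+HS was used to choose the members.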

How the results depend on the processing

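Read depth is unknown, and 3 libraries per group limit every count. For the alternatives in this section the shares of all genes called are not given, so the counts cannot be set against a background. Fitted on the compared libraries alone, the RAP2.3-labelled libraries gave 12 members higher in EL than in CT, 3 lower in EL+HS than in EL, 7 higher and 11 lower in EL+HS than in CT, 2 below the sum of the single effects, and 1 lower in EL+HS than in HS, and WT on salt gave 4 higher and 10 lower in S+EL+HS than in S, 6 below the sum and 16 higher in S+EL+HS than in S+HS. With no filter on low values, 5 were higher in S+EL+HS than in S+HS in WT, 1 was lower in EL+HS than in CT and 4 were below the sum in the RAP2.3-labelled libraries. After rescaling by size factors (0.8309 to 1.1175), which moved the median of all genes for EL+HS against HS to -0.01, against -0.22 without it, 8 were higher and 1 lower in EL+HS than in CT and 4 were below the sum. A limit of 0 for EL+HS minus CT kept 52 members, and a limit of 1.5 for EL minus CT kept 34. Of 1818 alternative values of named genes, 1450 kept their call, 368 lost it and 0 changed sign.

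Leaving out 1 library at a time gave, for WT on salt, 23 to 27 members lower in S+EL+HS than in S+EL, 1 to 3 higher and 0 to 7 lower in S+EL+HS than in S, 15 to 27 lower in S+HS than in S, 1 to 5 below the sum, and 4 to 6 higher in S+EL+HS than in S+HS. The RAP2.3-labelled libraries gave 16 to 42 higher in EL than in CT, 19 to 44 lower in EL+HS than in EL, 1 to 5 higher and 1 to 3 lower in EL+HS than in CT, 3 to 20 below and 1 to 2 above the sum, and 0 to 5 lower in EL+HS than in HS. On salt they gave 14 to 17 higher in S+EL than in S and 18 to 35 lower in S+EL+HS than in S+EL. Between the labels at S+EL, 0 to 1 were called, and the rule chose 56 to 138 genes, of which 42 and 79 were among the 90.

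In no comparison checked did all 3 same-numbered pairs correlate above 0.1 in their deviations from group means (range -0.1462 to 0.3042). Between the labels at S+EL the 3 pairs stood at 0.3042, 0.0357 and 0.2153, and EL was not checked between the labels. EL replicate 1 was the highest EL library for 46 of the 60 longer members under both labels. Whether same-numbered libraries were linked beyond this check was not tested. With the replicate block, the RAP2.3-labelled libraries gave 30 members higher in EL than in CT, 32 lower in EL+HS than in EL, 4 and 4 higher and lower in EL+HS than in CT, 12 lower in HS than in CT, 6 below and 1 above the sum, 14 higher and 3 lower in EL+HS than in HS, 19 higher in S+EL than in S and 36 lower in S+EL+HS than in S+EL. The block gave, in WT on salt, 28 higher in S+EL than in S, 35 lower in S+EL+HS than in S+EL, 2 higher and 4 lower in S+EL+HS than in S, 25 lower in S+HS than in S, 4 below the sum and 6 higher in S+EL+HS than in S+HS, and 0 between the labels. The causes of these moves were not tested.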
